A study of Homo sapiens with 6 samples.

Results

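The genes described here are the SR proteins, the hnRNPs and their relatives, the kinases that phosphorylate SR proteins, and other well-known regulators of alternative splicing, compared between PC-3 cells of the MTA1 group and control cells (Ctrl). Members were chosen by symbol among the genes annotated as protein coding. They comprise SRSF1 to SRSF12, TRA2A, TRA2B, SRRM1 and SRRM2, every HNRNP symbol with PTBP1 to PTBP3, CLK1 to CLK4 with SRPK1 to SRPK3, and the MBNL, CELF, RBFOX, ESRP and NOVA genes with QKI and KHDRBS1. This gave 67 genes of 30651 in the count table. PC-3 is an established human line derived from prostate cancer that had spread to bone. The 6 libraries, 3 per group, were made from total RNA with a stranded kit. In the data files, column names for the MTA1 group start with sh, as is usual for a short hairpin RNA, and those for Ctrl with NC. The labels mention lentivirus and the screening of stable clones. They give neither the number of hairpins or clones nor whether the libraries came from separate cultures, so p-values measure only how these libraries vary, and that variation may be technical.

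SR proteins bind exons through RNA recognition motifs and recruit the spliceosome through domains rich in arginine and serine, and they mostly promote exon inclusion. hnRNPs coat nascent transcripts and often oppose them by silencing exons. SRPK kinases phosphorylate SR proteins in the cytoplasm and allow their import, and CLK kinases phosphorylate them further in the nucleus and release them from nuclear speckles. Many SR and hnRNP genes limit their own level through a poison exon or a retained intron that sends the transcript to decay or holds it in the nucleus. The title of the series names splice variants, and the comparison below asks how the genes that set splicing differed in RNA level. The deposited values are sums per gene, so transcripts with and without such an exon or intron were counted together.

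Libraries held 29909172 to 33849262 counts, and the biological coefficient of variation between replicates was 4.451%. MTA1 had 528, 572 and 519 counts in the MTA1 libraries, against 1185, 1331 and 1352 counts in the Ctrl libraries, and its CPM (counts scaled to a common depth with TMM, a trimmed mean of log ratios) was 43.4% of that in Ctrl (log2 fold change -1.21 ± 0.054, adjusted p = 4.3e-13). KRT8 and KRT18, keratins of simple epithelium, stood at 197 to 213 and 349 to 396 FPKM (fragments scaled for gene length and depth) in the MTA1 group, against 229 to 241 and 356 to 393 FPKM in Ctrl. KLK3, which PC-3 cells lack, had 0 counts in the MTA1 libraries and 0 to 1 in the Ctrl libraries. The leukocyte gene PTPRC had 0 to 2 counts in the MTA1 libraries and 0 to 3 in the Ctrl libraries.

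Small shifts in both directions, rather than a shift of the whole group, were seen among the splicing regulators. Of the 67 genes, 52 had enough counts to be tested, of which 16 were higher and 18 lower in the MTA1 group at an adjusted p under 0.05, and 18 did not pass. Across all 15423 tested genes, 58.1% passed the same test (29.5% higher and 28.6% lower), and 61.4% of the protein coding ones did, so the share of regulators that passed, 65.4%, is close to the background. A value ± an error in parentheses below is a log2 fold change, MTA1 group over Ctrl, with its standard error. The regulators' median log2 fold change was -0.014, and that of all tested genes was 0.0015. The median size of the change, sign aside, was 0.18 among them and 0.29 over all tested genes. CLK2, SRSF11 and PTBP3 passed with a difference of 1.5-fold or more, against 19.6% of all tested genes. No regulator reached 2-fold, whereas 954 of the 15423 tested genes passed with at least that difference. In 33 of the 52 the CPM values of the MTA1 and Ctrl libraries did not overlap, against 62.7% of all tested genes; 17 lay higher and 16 lower in the MTA1 group, against 32.1% and 30.6%. When the test asked for a change beyond 1.2-fold, a threshold added after the data were seen, 7 remained higher and 5 lower, against 30.1% of all tested genes. The 7 were CLK1, CLK2, CLK4, SRPK2, SRSF11, SRRM1 and HNRNPH1, and the 5 were PTBP3, HNRNPA0, HNRNPA1, SRSF3 and SRSF8. On the log2(FPKM + 0.1) and log2(FPKM + 1) scales the split was 18 higher and 13 lower. Values of several called genes moved by more than 1.5 times with their call kept: on log2(FPKM + 1), CLK1 was at 0.32, CLK4 at 0.26, SRPK2 at 0.33, MBNL1 at 0.14, SRSF8 at -0.23, QKI at -0.15 and HNRNPUL1 at -0.14, and with library size alone HNRNPH3 was at 0.18, HNRNPU at 0.20, HNRNPF at -0.12 and PTBP1 at -0.12. In bulk RNA, a change in every cell and a change in the share of cells with a transcript cannot be told apart.

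**Figure D1:**
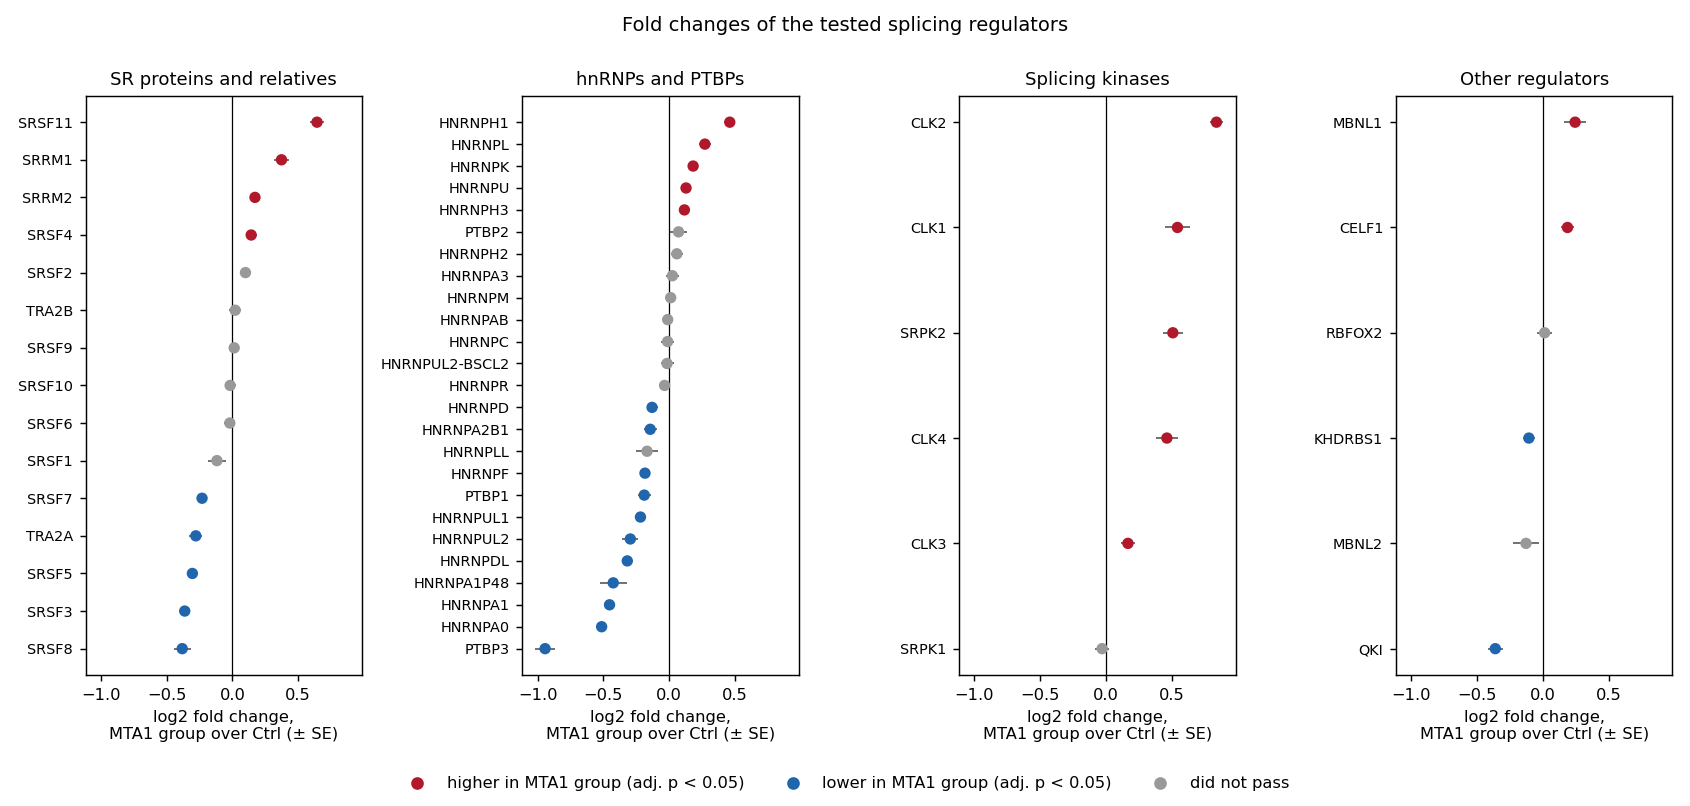
Log2 fold changes, MTA1 group over Ctrl, of the 52 tested regulators in 4 panels (SR proteins and relatives, hnRNPs and PTBPs, splicing kinases, other regulators), with bars of 1 standard error. Red points passed the test as higher in the MTA1 group and blue ones as lower. The kinase panel has 5 red points and 1 grey one, and PTBP3 lies farthest to the left at -0.94.

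Per length, HNRNPA1 was the most abundant of the regulators, with 814, 829 and 795 FPKM in the MTA1 libraries, against 1032, 1092 and 1062 FPKM in the Ctrl libraries. HNRNPA2B1 came next with 289 ± 10.3 FPKM in the MTA1 libraries and 305 ± 17.5 FPKM in the Ctrl libraries (SD, n = 3 each). HNRNPAB followed with 189 ± 7.37 FPKM in the MTA1 libraries and 182 ± 0.247 FPKM in the Ctrl libraries, and HNRNPD with 164 ± 3.56 FPKM in the MTA1 libraries and 171 ± 4.90 FPKM in the Ctrl libraries. The first 11 places all belonged to hnRNPs. The most abundant SR genes were SRSF9, with 61.9 ± 1.31 FPKM in the MTA1 libraries and 58.4 ± 1.82 FPKM in the Ctrl libraries, and SRSF4, with 54.7 ± 1.94 FPKM in the MTA1 libraries and 47.3 ± 1.57 FPKM in the Ctrl libraries. Kinases lay far lower: CLK2 averaged 14.4 ± 0.869 FPKM in the MTA1 libraries and 7.68 ± 0.170 FPKM in the Ctrl libraries, while CLK1, CLK4 and SRPK2 were between 0.807 and 1.62 FPKM in both groups. These levels depend on how reads were shared between overlapping and near-identical genes, which is described below for SRSF1, HNRNPUL2, HNRNPA1, HNRNPL and CELF6.

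**Figure D2:**
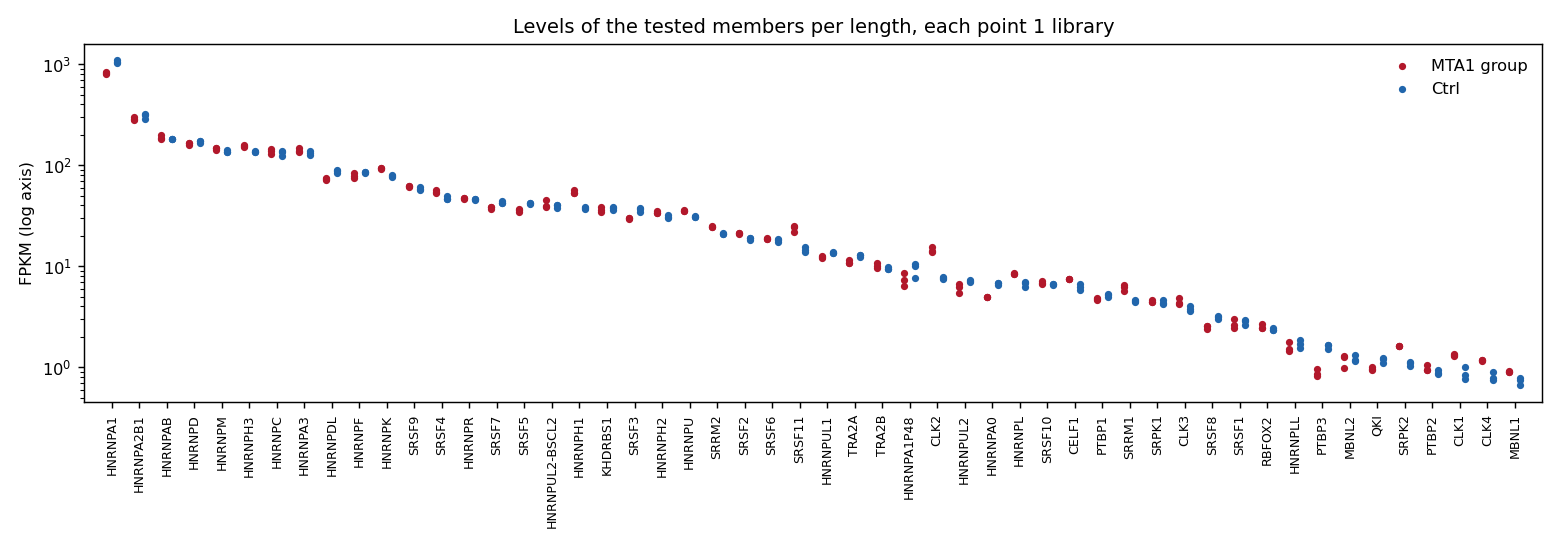
FPKM of each tested regulator in each library, on a log axis, with genes ordered by their level in Ctrl and MTA1 libraries drawn to the left of Ctrl libraries. The hnRNPs fill the left end, from HNRNPA1 downward, and CLK1, CLK4, SRPK2 and MBNL1 lie at the right end.

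Among the SR proteins and their relatives, 15 of 16 genes were tested, of which 4 were higher, 5 were lower and 6 did not pass. The share called, 60%, is close to the 58.1% of all tested genes (29.5% higher and 28.6% lower). The largest difference belonged to SRSF11, an SR-related protein of nuclear speckles, which had 231, 237 and 204 CPM in the MTA1 libraries, against 151, 136 and 143 CPM in the Ctrl libraries. All 3 MTA1 libraries lay above all 3 Ctrl libraries (0.64 ± 0.052, adjusted p = 2.2e-09). SRRM1, a splicing coactivator that bridges SR proteins and the spliceosome, had 54.8, 57.1 and 49.3 CPM in the MTA1 libraries, against 41.7, 41.7 and 41.0 CPM in the Ctrl libraries. Again the groups did not overlap, and the third MTA1 library was the lowest of its group (0.37 ± 0.053, adjusted p = 5.5e-06). SRRM2, a scaffold of nuclear speckles, had 358, 354 and 351 CPM in the MTA1 libraries, against 314, 315 and 316 CPM in the Ctrl libraries. Replicates differed by less than the gap between groups, small as the gap was (0.17 ± 0.037, adjusted p = 0.00054). For SRSF4, a classical SR protein with a long arginine and serine rich tail, the values were 525, 556 and 516 CPM in the MTA1 libraries, against 477, 467 and 502 CPM in the Ctrl libraries. Its groups lay close but apart (0.14 ± 0.042, adjusted p = 0.0067); without the second Ctrl library the adjusted p was 0.052, and without the second MTA1 library it was 0.063.

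SRSF3, the smallest SR protein and also an adaptor for mRNA export, fell in the MTA1 group. It had 235, 231 and 233 CPM in the MTA1 libraries, against 282, 309.5 and 306 CPM in the Ctrl libraries, with no overlap (-0.36 ± 0.042, adjusted p = 3.2e-07). SRSF7, its close relative with an added zinc knuckle, fell too and averaged 170.2 ± 4.56 CPM in the MTA1 libraries and 199.6 ± 6.43 CPM in the Ctrl libraries (-0.23 ± 0.041, adjusted p = 6.4e-05). SRSF5, a classical SR protein, had 218, 205 and 214 CPM in the MTA1 libraries, against 260.4, 262 and 264 CPM in the Ctrl libraries. Every MTA1 library was below every Ctrl library (-0.30 ± 0.039, adjusted p = 1.4e-06). SRSF8, an SRSF2 relative that arose by retrotransposition, had 12.2, 11.5 and 12.1 CPM in the MTA1 libraries, against 15.0, 15.4 and 16.1 CPM in the Ctrl libraries, and these groups did not overlap either (-0.38 ± 0.065, adjusted p = 4.7e-05). TRA2A, a homolog of fly transformer-2 that activates exons, had 44.5, 42.3 and 41.5 CPM in the MTA1 libraries, against 53.5, 51.6 and 50.5 CPM in the Ctrl libraries, again apart (-0.28 ± 0.048, adjusted p = 5.1e-05). Its paralog TRA2B had a log2 fold change of 0.021 and did not pass.

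The other SR genes did not pass. SRSF9 had 257, 247 and 253 CPM in the MTA1 libraries, against 248, 242 and 259.7 CPM in the Ctrl libraries, and the groups overlapped (log2 fold change 0.014 ± 0.040, adjusted p = 0.79). SRSF6 stood at -0.019 and SRSF10, which represses splicing when dephosphorylated, at -0.017. SRSF2, an SR protein mutated in myeloid disease, had an adjusted p of 0.058 with groups that did not overlap (69.2 ± 1.12 CPM in the MTA1 libraries and 64.5 ± 2.03 CPM in the Ctrl libraries; log2 fold change 0.10 ± 0.044). It passed as higher under 4 of the alternatives. On the opposite strand, 36.66% of the exon bases of SRSF2 are shared with MFSD11 in GENCODE 29, which was lower in the MTA1 group (-0.37 ± 0.056), and 46.18% of those of SRSF9 with GATC (-0.59 ± 0.070). Whether the authors counted by strand is not given in the sources used here. It is therefore not known whether reads of such pairs were kept apart.

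SRSF1, the founding SR protein and described as an oncogene in several cancers, overlaps another gene on the same strand. It had 16.9, 15.9 and 19.2 CPM in the MTA1 libraries, against 17.4, 19.6 and 19.3 CPM in the Ctrl libraries, with overlapping groups (log2 fold change -0.12 ± 0.070, adjusted p = 0.16). GENCODE 29 places 56.59% of its exon bases on the same strand within exons of a second gene, AC015813.2. The deposited counts name that gene RP11-159D12.5. The annotation behind those counts is not given, and its overlaps may differ. RP11-159D12.5 was given 5307, 5378 and 5227 counts in the MTA1 libraries, against 4832, 4955 and 4991 in the Ctrl libraries. That gene was higher in the MTA1 group (0.16 ± 0.039, adjusted p = 0.0017). With the reads of both added together, a step chosen after the data were seen, the locus had 191, 185 and 188 CPM in the MTA1 libraries, against 174, 171 and 171 CPM in the Ctrl libraries. The sum was higher in the MTA1 group (0.13 ± 0.038, adjusted p = 0.0064), which turns the sign for SRSF1. Level and direction of SRSF1 thus depend on how reads of the locus are assigned. Without the third MTA1 library, its own reads passed as lower (-0.20, adjusted p = 0.016).

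Of the SR genes, the promoter of SRSF11 is shown because this gene had the largest difference in the class. The sequence is the 150 bases before the transcription start in RefSeq (GRCh38.p14, chr1:70221230-70221379, plus strand), with a match to the half-site of the cAMP response element, TGACG on either strand, in capitals.
SRSF11: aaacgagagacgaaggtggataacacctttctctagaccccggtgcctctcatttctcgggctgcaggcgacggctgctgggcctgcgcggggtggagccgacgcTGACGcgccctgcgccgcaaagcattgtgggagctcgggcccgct

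In the hnRNP class, 25 of 26 genes were tested, of which 5 were higher and 11 lower in the MTA1 group, and 9 did not pass. The shares of all tested genes called higher and lower were 29.5% and 28.6%. On both FPKM scales the split was 6 higher and 7 lower, and without the second Ctrl library 3 were called higher. HNRNPA1, which binds exon silencers and shuttles with mRNA to the cytoplasm, had 6053, 6159 and 5841 CPM in the MTA1 libraries, against 8058, 8402 and 8258 CPM in the Ctrl libraries. Every MTA1 library lay well below every Ctrl library (-0.45 ± 0.043, adjusted p = 2.0e-08). It took 0.599 to 0.631% of all counts in the MTA1 libraries and 0.785 to 0.825% in the Ctrl libraries. The class as a whole held 1.95 to 2.02% of counts in the MTA1 group and 2.12 to 2.17% in Ctrl. Without HNRNPA1 the class held 1.35 to 1.41% in the MTA1 group and 1.30 to 1.38% in Ctrl, and the ranges overlapped. The SR class held 0.252 to 0.260% in the MTA1 group and 0.241 to 0.245% in Ctrl. These shares are of raw counts without TMM, where the median log2 fold change of all tested genes was 0.0695. With TMM the SR median was -0.017, so the shares alone do not show a rise of the SR class.

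Its closest paralog HNRNPA2B1 had 4204, 4012 and 3876 CPM in the MTA1 libraries, against 4582, 4125 and 4656 CPM in the Ctrl libraries. The groups overlapped, since the second Ctrl library lay below the first MTA1 library, although the gene passed as lower (-0.14 ± 0.049, adjusted p = 0.017). It no longer passed without the first Ctrl, the third Ctrl or the second MTA1 library, with an adjusted p of 0.053 to 0.095. With library size alone the log2 fold change was -0.076 (adjusted p = 0.18), and on both FPKM scales it was -0.075 (adjusted p = 0.25), so the call was lost there too. HNRNPA0, a single-exon relative that binds AU-rich elements, fell further and had 48.1, 47.5 and 47.1 CPM in the MTA1 libraries, against 69.0, 68.3 and 66.5 CPM in the Ctrl libraries. Replicates were close together and the groups far apart (-0.51 ± 0.044, adjusted p = 4.8e-09). HNRNPA3 had a log2 fold change of 0.025 and did not pass.

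HNRNPA1 has many processed pseudogenes whose reads can be misassigned. All 54 genes with an HNRNPA1P symbol, HNRNPA1P48 among them, together took 0.0265 to 0.0325% of counts in the MTA1 libraries and 0.0276 to 0.0307% in the Ctrl libraries, a small part of what HNRNPA1 took. Of the 150-base windows of HNRNPA1P7, 61.8% also occur in HNRNPA1 transcripts, and of those of HNRNPA1P10, 30.1%. HNRNPA1P7 was lower in the MTA1 group (-0.26, adjusted p = 0.0030) and HNRNPA1P10 did not pass (0.30, adjusted p = 0.13). With the pseudogene reads added to HNRNPA1, the log2 fold change was -0.44 ± 0.043 (adjusted p = 3.1e-08). HNRNPA1P48, annotated as protein coding and so counted among the regulators, had 18.3, 15.6 and 13.3 CPM in the MTA1 libraries, against 22.8, 17.1 and 23.5 CPM in the Ctrl libraries. These groups overlapped (-0.43 ± 0.10, adjusted p = 0.0017), and 19.4 to 30.5% of the windows of its transcripts occur in HNRNPA1, so its value is uncertain. It did not pass in the DESeq2 Wald test (adjusted p = 0.054) or on the FPKM scales (adjusted p = 0.067 and 0.068).

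PTBP3, a relative of the pyrimidine tract binding protein, had the largest decrease of all the regulators. Its values were 7.84, 8.77 and 7.41 CPM in the MTA1 libraries, against 16.1, 15.6 and 14.6 CPM in the Ctrl libraries, so that the highest MTA1 library was far below the lowest Ctrl library (-0.94 ± 0.077, adjusted p = 2.4e-09). On the log2(FPKM + 1) scale PTBP3 was at -0.48. On average it stood at 52.0% of its level in Ctrl. PTBP1, the main repressor of exons with pyrimidine tracts in non-neuronal cells, was lower by less and averaged 39.3 ± 1.26 CPM in the MTA1 libraries and 44.8 ± 1.2 CPM in the Ctrl libraries (-0.19 ± 0.049, adjusted p = 0.0024). PTBP1 did not pass on the log2(FPKM + 0.1) and log2(FPKM + 1) scales (adjusted p = 0.055 and 0.058). PTBP2, the paralog of neurons, had a log2 fold change of 0.071 and did not pass. The 150 bases before the start of PTBP3 in RefSeq (GRCh38.p14, chr9:112333027-112333176, minus strand) are shown for the gene with this decrease, with both matches to the GC box (GGGCGG on either strand) in capitals.
PTBP3: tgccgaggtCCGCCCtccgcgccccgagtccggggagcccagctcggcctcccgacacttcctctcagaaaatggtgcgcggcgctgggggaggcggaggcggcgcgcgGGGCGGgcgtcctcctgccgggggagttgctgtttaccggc

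HNRNPDL, which binds AU-rich RNA and regulates its own splicing, had 455, 439.9 and 442 CPM in the MTA1 libraries, against 575, 529 and 564 CPM in the Ctrl libraries. All MTA1 libraries were below all Ctrl libraries (-0.32 ± 0.041, adjusted p = 1.5e-06). Its relative HNRNPD was lower by less (-0.13 ± 0.042, adjusted p = 0.012) and did not pass with scaling by library size alone (-0.062, adjusted p = 0.20) or on the FPKM scales (adjusted p = 0.17). HNRNPF, a binder of G runs, was lower at -0.18, and HNRNPUL1, a relative of HNRNPU, at -0.22. HNRNPUL2 passed as lower (-0.30 ± 0.060, adjusted p = 0.00031), but 44.15% of its exon bases lie in the readthrough gene HNRNPUL2-BSCL2 on the same strand. With the reads of both added, the value was -0.067 ± 0.042 (adjusted p = 0.19), and the call was lost.

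Higher in the MTA1 group was HNRNPH1, which binds G runs and either enhances or silences exons. It had 554, 556 and 596 CPM in the MTA1 libraries, against 415, 400.5 and 425 CPM in the Ctrl libraries. No library of one group reached the other (0.46 ± 0.042, adjusted p = 1.2e-08). HNRNPL, a binder of CA repeats, had 60.7, 61.2 and 60.1 CPM in the MTA1 libraries, against 47.4, 50.6 and 52.6 CPM in the Ctrl libraries, also apart (0.27 ± 0.048, adjusted p = 6.0e-05). HNRNPK, a binder of C-rich RNA, had 529.7, 517 and 519 CPM in the MTA1 libraries, against 463, 465 and 451 CPM in the Ctrl libraries, with a gap wider than the spread of either group (0.18 ± 0.038, adjusted p = 0.00038). HNRNPU, also called scaffold attachment factor A, had 892, 888 and 864 CPM in the MTA1 libraries, against 830.0, 786 and 803 CPM in the Ctrl libraries. The groups did not overlap (0.13 ± 0.040, adjusted p = 0.0088), but without the second Ctrl library the adjusted p was 0.054. HNRNPH3 was higher at 0.12 ± 0.038 (adjusted p = 0.014), and its adjusted p was 0.064 without the same library. COX20 shares 15.56% of the exon bases of HNRNPU on the opposite strand and was lower (-0.16 ± 0.053). AC008982.1 shares 8.22% of the exon bases of HNRNPL on the same strand and had 13118 counts over all libraries. How reads of that pair were assigned is not known, and HNRNPL was not tested with the reads of both added.

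The remaining hnRNPs that did not pass had small differences. HNRNPA3, HNRNPAB, HNRNPC, HNRNPM, HNRNPR and HNRNPUL2-BSCL2 lay between -0.035 and 0.025 on the log2 scale, and the signs of HNRNPAB, HNRNPC, HNRNPR and HNRNPUL2-BSCL2 turned with scaling by library size alone. HNRNPH2 was at 0.059 and HNRNPLL, a regulator of splicing in lymphocytes, at -0.17. HNRNPLL passed as lower without the third Ctrl library (adjusted p = 0.046) or the third MTA1 library (adjusted p = 0.012). HNRNPR, though it did not pass (adjusted p = 0.45), had groups that did not overlap, with 454.5, 454.7 and 445.6 CPM in the MTA1 libraries, against 470.3, 454.8 and 462.8 CPM in the Ctrl libraries. The second MTA1 and the second Ctrl library nearly touched.

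Of the 6 tested splicing kinases, 5 were higher in the MTA1 group and none was lower, against 29.5% and 28.6% of all tested genes. Their median log2 fold change was 0.49, and 0.29 on the log2(FPKM + 1) scale, where a pseudocount of 1 shrinks the change of low genes. Past the 1.2-fold threshold, 4 of 6 were higher, against 15.5% of all tested genes. CLK2, a nuclear kinase of SR proteins, had 57.2, 55.8 and 61.8 CPM in the MTA1 libraries, against 32.0, 33.0 and 32.6 CPM in the Ctrl libraries. The lowest MTA1 library was far above the highest Ctrl library (0.84 ± 0.051, adjusted p = 2.7e-11), and the average was 179% of that in Ctrl, the largest increase among the regulators. CLK1 had 7.64, 7.47 and 7.67 CPM in the MTA1 libraries, against 5.08, 5.92 and 4.62 CPM in the Ctrl libraries, and CLK4, its closest paralog, had 10.3, 10.1 and 10.2 CPM in the MTA1 libraries, against 6.80, 7.08 and 8.27 CPM in the Ctrl libraries. In both, the MTA1 libraries lay close together above more scattered Ctrl libraries (CLK1 0.54 ± 0.098, adjusted p = 8.3e-05; CLK4 0.46 ± 0.084, adjusted p = 8.7e-05). CLK3 had 91.4, 94.8 and 105 CPM in the MTA1 libraries, against 82.2, 90.5 and 86.4 CPM in the Ctrl libraries. The groups came close, with the first MTA1 library just above the second Ctrl library (0.17 ± 0.051, adjusted p = 0.0087), and the adjusted p was 0.058 without the first Ctrl library and 0.054 without the third MTA1 library.

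Of the kinases that act mainly in the cytoplasm, 1 of 2 passed. SRPK2 had 11.5, 11.4 and 11.4 CPM in the MTA1 libraries, against 8.38, 7.51 and 8.21 CPM in the Ctrl libraries, with the groups well apart (0.51 ± 0.075, adjusted p = 7.9e-06). SRPK1, the more abundant of the pair per length (4.49 ± 0.121 FPKM in the MTA1 libraries and 4.37 ± 0.209 FPKM in the Ctrl libraries), had 32.8, 34.3 and 32.4 CPM in the MTA1 libraries, against 32.7, 35.3 and 33.6 CPM in the Ctrl libraries. Its groups overlapped (log2 fold change -0.029 ± 0.051, adjusted p = 0.65). All kinase genes together took 0.0215 to 0.0234% of raw counts, without TMM, in the MTA1 libraries, against 0.0163 to 0.0176% in the Ctrl libraries.

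**Figure D3:**
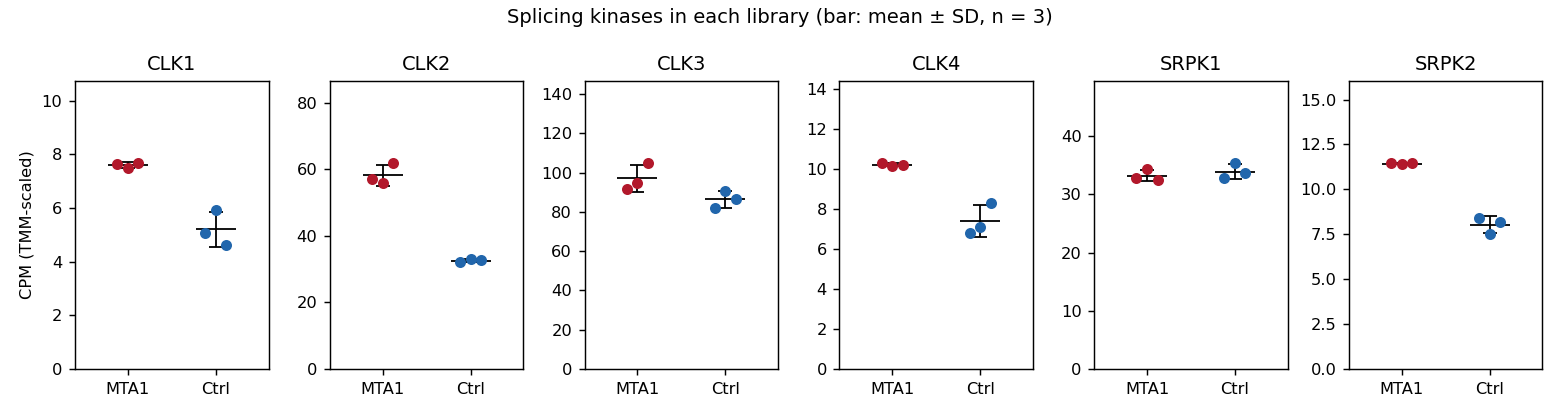
TMM-scaled CPM of CLK1 to CLK4, SRPK1 and SRPK2 in each library (points), with the mean and SD of each group (n = 3), MTA1 group left of Ctrl, each panel on its own axis from 0. For CLK1, CLK2, CLK3, CLK4 and SRPK2 all red points lie above all blue ones, and for SRPK1 the points overlap.

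Promoters of the 4 kinases that passed the 1.2-fold threshold are shown together because these genes rose together. Each is the 150 bases before the RefSeq start (GRCh38.p14, all on the minus strand): CLK1 at chr2:200864659-200864808, CLK2 at chr1:155273505-155273654, CLK4 at chr5:178627051-178627200 and SRPK2 at chr7:105389392-105389541. Capitals mark matches, on either strand, to the NRF1 motif (GCGCA, any base, then GCGC), the GC box (GGGCGG), the E-box (CACGTG) and the CRE half-site (TGACG).
CLK1: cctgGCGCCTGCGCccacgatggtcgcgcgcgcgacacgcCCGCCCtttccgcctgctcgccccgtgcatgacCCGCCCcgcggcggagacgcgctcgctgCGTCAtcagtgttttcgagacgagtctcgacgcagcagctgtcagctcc
CLK2: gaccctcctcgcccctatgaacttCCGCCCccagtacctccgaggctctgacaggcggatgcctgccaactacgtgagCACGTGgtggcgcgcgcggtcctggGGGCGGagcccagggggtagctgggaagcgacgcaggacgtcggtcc
CLK4: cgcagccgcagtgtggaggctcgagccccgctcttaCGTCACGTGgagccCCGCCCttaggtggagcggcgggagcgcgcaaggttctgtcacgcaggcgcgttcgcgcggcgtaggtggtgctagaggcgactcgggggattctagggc
SRPK2: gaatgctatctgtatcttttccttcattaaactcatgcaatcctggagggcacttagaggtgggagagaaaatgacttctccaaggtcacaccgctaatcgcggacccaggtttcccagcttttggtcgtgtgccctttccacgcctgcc
CLK1, CLK2 and CLK4 hold at least 1 GC box in this window, CLK1 and CLK4 a CRE half-site, and CLK2 and CLK4 an E-box, which in CLK4 overlaps the CRE half-site. In SRPK2 none of these letters occur in the window. Only 1 RefSeq start per gene was used, and any other start was not examined. G and C made up 44.8% of the 250 bases before this SRPK2 start, against a median of 65.8% over the 46 tested regulators with an entry.

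Promoter letters were compared over the 250 bases before each start for the 59 of 67 regulators with an entry in the RefSeq table, 46 of them tested. HNRNPA1, HNRNPA1P48, SRSF2, TRA2A, QKI, RBFOX2, ESRP1 and ESRP2 had none. The GC box occurred in 67.4% of the 46, in 68.2% of the 9948 tested protein coding genes and in 42.3% of all 27305 promoters. The E-box occurred in 19.6% of the 46, in 9.05% of the tested protein coding genes and in 6.49% of all promoters, and the CRE half-site in 39.1%, 30.1% and 21.7%. The NRF1 motif occurred in 17.4%, 10.7% and 5.53%, the CCAAT box (CCAAT) in 41.3%, 35.4% and 33%, the ETS motif (CCGGAAG) in 10.9%, 16.2% and 8.82%, and the TATA box (TATAAA) in 10.9%, 5.45% and 11.1%. Between regulators called higher and lower the GC box occurred in 11 of 16 and 10 of 14, the E-box in 3 of 16 and 3 of 14, and the CRE half-site in 6 of 16 and 6 of 14. The CCAAT box occurred in 5 of 16 and 7 of 14, the ETS motif in 1 of 16 and 3 of 14, the NRF1 motif in 2 of 16 and 1 of 14, and the TATA box in 1 of 16 and 2 of 14. These are matches of letters, counted on both strands without a test.

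Few of the other regulators had enough counts for a test. Of 18 genes, 6 were tested, of which 2 were higher and 2 lower, against 29.5% and 28.6% of all tested genes, and 2 were not called. CELF1, which binds GU-rich RNA, had 85.8, 86.1 and 86.6 CPM in the MTA1 libraries, against 76.1, 69.9 and 81.0 CPM in the Ctrl libraries. The MTA1 libraries lay tightly above the Ctrl ones (0.19 ± 0.049, adjusted p = 0.0028). MBNL1, the factor sequestered by CUG repeats in myotonic dystrophy, had 9.88, 10.1 and 9.89 CPM in the MTA1 libraries, against 9.06, 7.57 and 8.54 CPM in the Ctrl libraries, and the groups did not overlap (0.25 ± 0.081, adjusted p = 0.013). Without the second Ctrl library MBNL1 had an adjusted p of 0.097, and in the DESeq2 Wald test 0.057. QKI, which regulates splicing in mesenchymal and glial cells, had 18.3, 18.0 and 19.0 CPM in the MTA1 libraries, against 24.9, 22.2 and 24.1 CPM in the Ctrl libraries. Here every MTA1 library was below every Ctrl library (-0.36 ± 0.059, adjusted p = 2.7e-05). KHDRBS1, also called Sam68, had 141, 135 and 149 CPM in the MTA1 libraries, against 148, 156 and 154 CPM in the Ctrl libraries, with overlap (-0.11 ± 0.043, adjusted p = 0.044), and it passed in fewer settings than any other of the 34 that passed, losing its call in 9 of 17 alternative settings. MBNL2 was at -0.13 and RBFOX2 at 0.014, and neither passed. On both FPKM scales and with library size alone, 1 of these genes was called lower, as without the second Ctrl, the third Ctrl, the first MTA1 or the second MTA1 library.

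Not tested for low counts were 15 genes: SRSF12, HNRNPCL1, SRPK3, CELF2 to CELF6, ESRP1, ESRP2, MBNL3, NOVA1, NOVA2, RBFOX1 and RBFOX3. None exceeded 13 counts in a library. The epithelial regulators were among them: ESRP1 had 3, 4 and 4 counts in the MTA1 libraries and 3, 5 and 4 in the Ctrl libraries, and ESRP2 had 3, 7 and 7 in the MTA1 libraries and 5, 6 and 1 in the Ctrl libraries. NOVA1, a neuronal factor, had 0, 0 and 2 counts in the MTA1 libraries and 0 in each Ctrl library, where a count of 0 allows up to 0.0886 to 0.0946 CPM by counting error alone (3 counts). NOVA2, its paralog, had 0, 1 and 0 counts in the MTA1 libraries and 3, 4 and 4 in the Ctrl libraries. Counts this low were left out of the test, and no difference is claimed for these genes. For CELF6, 88.74% of the exon bases are shared on the same strand with AC009690.1, which had 4382 counts over all libraries. How reads of this pair were assigned is not known, so the level of CELF6 is uncertain.

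**Figure D4:**
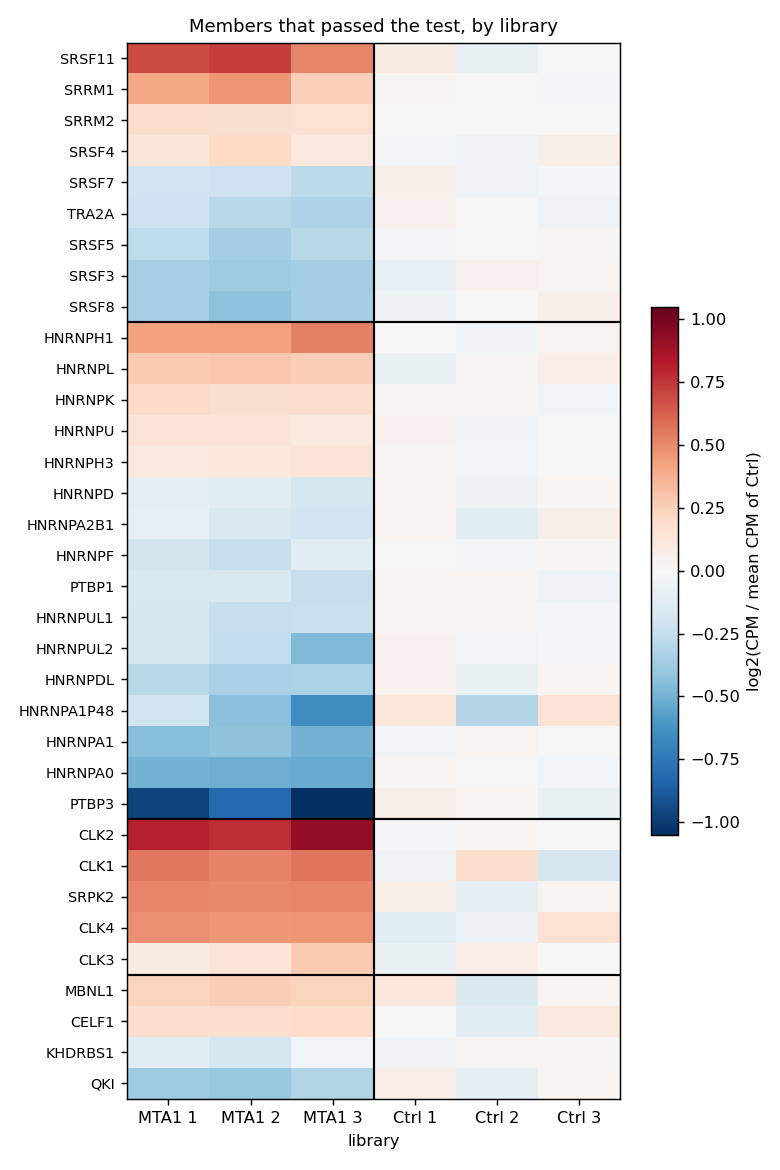
CPM of the 34 regulators that passed, in each library, as the log2 ratio to the mean of Ctrl (red higher, blue lower), with MTA1 libraries in the left columns. PTBP3 in blue and CLK2 and SRSF11 in red are darkest, and the row of HNRNPA1P48 varies among replicates.

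Ratios within a library do not depend on how libraries are scaled, so related genes were also compared as log2 ratios of their counts, in 19 pairs. In 13 pairs the groups did not overlap, and in 6 they did. Of all tested single genes, 62.7% did not overlap in CPM. The share over other gene pairs was not computed, so 13 of 19 is not a result about paralogs. With 3 libraries a side the smallest possible p of the exact permutation test is 0.1 (2-sided), so none could pass; the 13 pairs without overlap had this p, 0.15 after adjustment over the 19 pairs. The log2 ratio of PTBP1 to PTBP3 was 2.35, 2.19 and 2.35 in the MTA1 libraries, against 1.50, 1.55 and 1.57 in the Ctrl libraries. It was higher in the MTA1 group by 0.76 ± 0.058 (SE), although both genes fell. The ratio of CLK2 to CLK3 was -0.68, -0.76 and -0.76 in the MTA1 libraries, against -1.36, -1.46 and -1.41 in the Ctrl libraries, a difference of 0.67 ± 0.040 where both genes rose. That of SRPK1 to SRPK2 was 1.52, 1.59 and 1.50 in the MTA1 libraries, against 1.96, 2.23 and 2.03 in the Ctrl libraries, a difference of -0.54 ± 0.085, and that of HNRNPA0 to HNRNPA3 differed by -0.54 ± 0.057. Per length, HNRNPA1 was 2.71, 2.89 and 2.84 times HNRNPA2B1 in the MTA1 libraries, and 3.31, 3.84 and 3.34 times in the Ctrl libraries. The ratio of TRA2A to TRA2B differed by -0.30 ± 0.046 and that of HNRNPH1 to HNRNPH3 by 0.34 ± 0.033. The other pairs that did not overlap were SRSF2 with SRSF8, SRSF5 with SRSF6, HNRNPL with HNRNPLL, HNRNPD with HNRNPDL, PTBP1 with PTBP2, and MBNL1 with MBNL2, at -0.29 to 0.48. Overlapping pairs were SRSF1 with SRSF9, SRSF3 with SRSF7, SRSF4 with SRSF6, HNRNPR with HNRNPM, HNRNPUL1 with HNRNPUL2, and CLK1 with CLK4. In no pair was one gene called higher and the other lower.

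**Figure D5:**
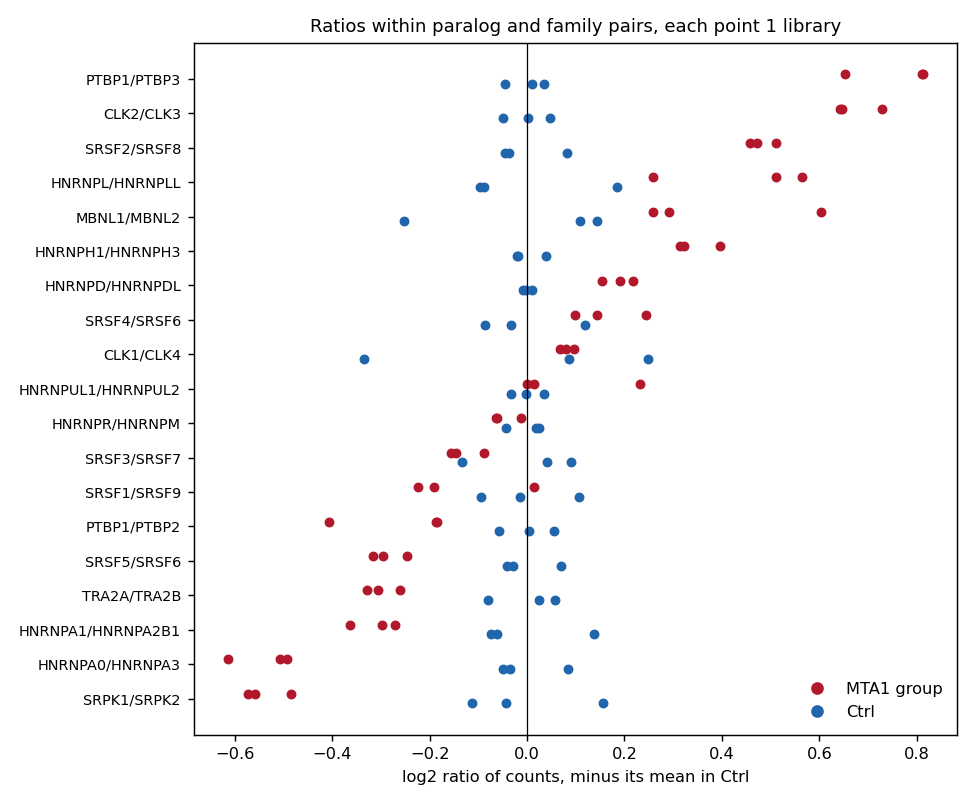
Log2 ratio of counts within 19 pairs of related genes, minus its mean in Ctrl, with 1 point per library (red MTA1 group, blue Ctrl). PTBP1 over PTBP3 and CLK2 over CLK3 lie farthest to the right of the Ctrl points, and SRPK1 over SRPK2 and HNRNPA0 over HNRNPA3 farthest to the left.

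Partners of these regulators were taken from 3 further lists. Other splicing regulators included 41 tested genes of 43, of which 11 were higher (26.8%, against 29.5% of all tested genes), 18 lower (43.9%, against 28.6%) and 12 not called, with a median log2 fold change of -0.04. PSPC1 (-0.83 ± 0.042, adjusted p = 2.2e-12) and SFPQ (-0.66 ± 0.040, adjusted p = 3.7e-11), proteins of the paraspeckle, were lower, and NONO, of the same family and named after its value was seen, was higher (0.21 ± 0.039, adjusted p = 0.00013). SFPQ averaged 858 ± 12.9 CPM in the MTA1 libraries and 1352 ± 42.3 CPM in the Ctrl libraries. Higher were FUBP1 (0.48 ± 0.042, adjusted p = 5.8e-09), LUC7L2, a partner of the particle that binds splice donors (0.37 ± 0.040, adjusted p = 1.1e-07), and MATR3, a nuclear matrix protein (0.34 ± 0.040, adjusted p = 5.3e-07), which has 2 rows in the table, of which the larger was used.

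Among 15 enzymes that import or modify SR proteins and hnRNPs, 6 were higher and 3 lower (median 0.068), or 60% called, close to the 58.1% of all tested genes. TOP1, a topoisomerase that can also phosphorylate SR proteins, was higher (0.65 ± 0.044, adjusted p = 1.8e-10), as were TNPO2, of the transportins that import hnRNPs (0.74 ± 0.097, adjusted p = 2.0e-06), and PRMT1, which methylates arginines of hnRNPs (0.42 ± 0.048, adjusted p = 2.3e-07). The nuclear kinase HIPK2 was lower (-0.31 ± 0.076, adjusted p = 0.0015), as were PPP1CB, a phosphatase subunit (-0.17 ± 0.045, adjusted p = 0.0032), and TNPO3, the import receptor for SR proteins (-0.18 ± 0.058, adjusted p = 0.014). On both FPKM scales none of the 3 passed as lower, so the split was 6 and 0, and without the first MTA1 library 5 were lower. Of 17 genes of nonsense-mediated decay, the route that removes transcripts with a poison exon, 6 were higher and 2 lower (median 0.071), or 47.1% called, against 58.1% of all tested genes. SMG5 (0.34 ± 0.042, adjusted p = 9.9e-07), UPF3A (0.29 ± 0.039, adjusted p = 2.4e-06) and the helicase UPF1 (0.36 ± 0.054, adjusted p = 8.9e-06) were higher, and MAGOHB (-0.20 ± 0.041, adjusted p = 0.00024) and UPF3B (-0.12 ± 0.045, adjusted p = 0.03) lower. On the FPKM scales this split was 7 and 1, and with library size alone it was 8 and 1. Without the first or the third Ctrl library, 1 of them was called lower.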

How the data were processed

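Total RNA of PC-3 cells was sequenced as 150 nt paired reads after preparation with a stranded kit, per the labels. Raw counts per gene, whole numbers without normalization, were deposited by the authors for 30651 genes. FPKM values, which the authors scaled for length and depth, cover 29969 genes. The submitters' processing notes name DESeq2 with no role, and which aligner, counter, strand setting, build and annotation served is not given in the sources used here. Columns named shMTA1 were taken for the MTA1 samples, and the NC columns, by elimination, for Ctrl.

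Counts of all genes were fitted with edgeR 4.0.16 in R 4.3.3 (TMM, filterByExpr, which kept 15423 genes, quasi-likelihood F test, 2-sided, group as the only term), with p adjusted by Benjamini-Hochberg over the whole table, called under 0.05. The fit was also run on simulated counts in which few genes were changed. That run cannot check the fit for data where 58.1% of tested genes pass. Standard errors were taken from that fit, and CPM was computed on TMM-scaled depth. Paralog ratios were compared with an exact permutation test, 2-sided. Alternatives used DESeq2 1.42.0 and limma 3.58.1, among others. Overlaps of exons came from GENCODE 29 and promoters from RefSeq (GRCh38.p14). The regulators and lists were chosen with earlier results of these data known. Values in each library are given for up to 4 called genes with the smallest p in each direction and the 2 most abundant genes of each class, and the rule named up to 3 genes in each direction from each further list; CLK3, HNRNPA1P48, HNRNPR and SRSF1 were given in full after their values were seen. A gene that the rule also named is not reported here.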

Additional observations from a re-analysis of the deposited data

How the results depend on the processing

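Of the 34 regulators that passed, 24 passed in the same direction, 11 higher and 13 lower, in each of the 17 alternative settings they entered. HNRNPA1 entered 16, being left out where the 20 most abundant genes were. The test against 1.2-fold and the sums with overlapping genes are not among the 17; HNRNPUL2 lost its call in the sum (-0.067). The other 10 (SRSF4, HNRNPA1P48, HNRNPA2B1, HNRNPD, HNRNPH3, HNRNPU, PTBP1, CLK3, KHDRBS1 and MBNL1) lost the call in at least 1, and none of the 34 changed sign. SRSF1, SRSF2, HNRNPH2 and HNRNPLL passed in some alternatives only. All numbers below are counts of genes or log2 fold changes, MTA1 group over Ctrl, and where no cause is given it was not tested.

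The replicate numbers did not pair the libraries (correlations of deviations 0.067, -0.021 and 0.019). With a replicate block, 17 regulators were higher and 18 lower, and SRSF2 passed with an adjusted p of 0.042. A test against 1.2-fold, chosen after the data were seen, left 2385 higher and 2265 lower genes in all, 7 and 5 regulators, 2 and 2 SR genes, 1 and 3 hnRNPs, 0 and 0 other regulators, 5 and 9 further splicing regulators, 0 import and modifying enzymes lower, and 2 and 0 decay genes, which a stricter test makes fewer by construction. On the log2(FPKM + 0.1) and log2(FPKM + 1) scales, 7 and 7 hnRNPs, 1 and 1 other regulators, 0 and 0 import and modifying enzymes, and 1 and 1 decay genes were lower. Scaling by library size alone gave 1 lower in each of the last 3 groups, and the DESeq2 Wald test 1 higher and 1 lower other regulator.

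The median of all tested genes was -0.0046 with DESeq2 size factors, 0.0695 with library size alone, 0.0082 without a filter, -0.0047 in the DESeq2 Wald test, and 0.0591 and 0.0274 on the 2 FPKM scales. With library size alone, log2(FPKM + 0.1) and log2(FPKM + 1), the median of the regulators was 0.0543, 0.0531 and 0.0520, of the hnRNPs 0.0333, 0.0326 and 0.0320, and of the other regulators 0.0225, 0.0197 and 0.0116. The SR median was 0.0513 and 0.0503 in the first 2, and the kinase median 0.5541 in the first and 0.2890 in the third. The FPKM values are scaled for depth as well as length, so these 3 settings are not separate checks. Genes that did not pass turned sign in these 3 settings: SRSF10 (0.0513, 0.0503, 0.0445), SRSF6 (0.0487, 0.0487, 0.0464), HNRNPAB (0.0571, 0.0560, 0.0557), HNRNPC (0.0565, 0.0560, 0.0557), HNRNPR (0.0333, 0.0326, 0.0320), HNRNPUL2-BSCL2 (0.0522, 0.0494, 0.0484) and SRPK1 (0.0387, 0.0389, 0.0324). Adding the reads of its overlapping gene turned SRSF1 to 0.1294.

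With 1 library left out, 12 to 16 regulators were higher and 16 to 20 lower. Higher hnRNPs numbered 3 to 5, other regulators 1 to 2 higher and 1 to 2 lower, import and modifying enzymes 2 to 5 lower, and decay genes 1 to 3 lower. The hnRNP median was -0.0794 to -0.0367 and the kinase median 0.4443 to 0.4914. Genes that did not pass and turned sign were SRSF9 (-0.0114 to 0.0396), TRA2B (-0.0226 to 0.0606), HNRNPA3 (-0.0223 to 0.0551), HNRNPAB (-0.0377 to 0.0083), HNRNPC (-0.0663 to 0.0351), HNRNPM (-0.0126 to 0.0379), HNRNPUL2-BSCL2 (-0.0794 to 0.0289) and RBFOX2 (-0.0353 to 0.0412). Ratios of paralogs taken from the deposited FPKM values moved by less than the spread between replicates. This was fixed in advance and is no separate check. Depth cancels in such a ratio, and gene length is the same in every library.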

Other observations

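The genes of the further splicing list that passed with a difference of 2-fold or more, 3 in all, were rare transcripts, chosen for mention after their values were seen. They were 3 of 41 tested genes of the list, against 954 of all 15423 tested genes, so their number is not a result about the list. SRRM4, the activator of neuronal microexons, averaged 0.311 ± 0.0744 CPM in the MTA1 libraries and 1.25 ± 0.154 CPM in the Ctrl libraries (log2 fold change -1.99 ± 0.28, adjusted p = 3.9e-06). Its paralog SRRM3 averaged 0.0955 ± 0.0827 CPM in the MTA1 libraries and 0.714 ± 0.0414 CPM in the Ctrl libraries, too few counts in the MTA1 libraries for the size of its fold to be given. KHDRBS3, a relative of KHDRBS1, averaged 0.302 ± 0.136 CPM in the MTA1 libraries and 0.731 ± 0.186 CPM in the Ctrl libraries (-1.28 ± 0.34, adjusted p = 0.0031). All 3 were lower in the MTA1 group. YBX1, an RNA-binding protein of stress response and translation, was among the most abundant genes of that list and averaged 2223 ± 103 CPM in the MTA1 libraries and 3062 ± 61.3 CPM in the Ctrl libraries (-0.46 ± 0.043, adjusted p = 1.9e-08). The smaller subunit of the factor that reads the splice acceptor, U2AF1, was lower (-0.64 ± 0.080, adjusted p = 9.8e-07). This is uncertain, because a genome build may list a near-identical copy of the gene that could share its reads. The build behind the counts is not given. U2AF2, the partner of U2AF1, was higher (0.21 ± 0.038, adjusted p = 0.00012).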
